A study of Mus musculus with 6 samples.

Results

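The FGF receptors and FGF ligands described here are 10 genes: the receptors Fgfr1, Fgfr2, Fgfr3 and Fgfr4, the ligands Fgf1, Fgf2, Fgf7, Fgf10 and Fgf18, and the ligand-binding protein gene Fgfbp1. They were taken by name, through the RefSeq accession of each array probe, and are 10 of 20648 genes and 17 of 55654 probes measured. RNA came from spheres, free-floating clusters of cells, that were made from mouse mammary tumors, and was hybridised to single-colour arrays, 3 from FRS2beta knockout mice (knockout) and 3 from mice heterozygous for FRS2beta (hetero). FRS2beta is an adaptor protein encoded by Frs3. The hetero spheres thus carry a disrupted allele as well, and no wild-type samples were compared. The medium of all spheres held EGF and bFGF (the FGF2 protein), each at 20 ng/mL, with 2 mg/mL heparin, so an FGF ligand and its cofactor were present in both groups from outside. What started the tumors, the age and strain of the mice, and whether replicates came from separate animals or cultures are not stated in the labels. The p-values therefore cover the spread among these samples alone, and that spread may be technical.

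FGFs are secreted signals that bind a receptor tyrosine kinase together with heparan sulfate on the cell surface. The active receptor signals through FRS2 adaptors docked to it, which recruit Grb2 and Sos and switch on the Ras and ERK pathway. In the mammary gland FGF7 and FGF10 are made by stromal cells and act on an epithelial splice form of Fgfr2, and Fgf10 and Fgfr2 are needed for the mouse gland to form. The array measures RNA, not the protein added to the medium or receptor activity.

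Promoter sequences of 4 members are shown because these genes moved apart in the spheres, Fgf18 and Fgf7 lower and Fgfbp1 and Fgf2 higher in knockout. Each is the 250 bases before the RefSeq start site on assembly GRCm38.p6, written 5′ to 3′ on the gene's strand, with matches to a searched motif in capitals. The windows are chr11:33147401-33147650 (minus strand) for Fgf18, chr2:126034408-126034657 (plus strand) for Fgf7, chr5:43981800-43982049 (minus strand) for Fgfbp1 and chr3:37348403-37348652 (plus strand) for Fgf2.
Fgf18: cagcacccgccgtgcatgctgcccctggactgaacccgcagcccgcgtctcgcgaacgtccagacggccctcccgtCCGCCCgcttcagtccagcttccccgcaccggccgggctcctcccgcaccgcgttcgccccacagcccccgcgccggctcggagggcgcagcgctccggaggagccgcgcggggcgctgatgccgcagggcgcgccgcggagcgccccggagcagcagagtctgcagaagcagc
Fgf7: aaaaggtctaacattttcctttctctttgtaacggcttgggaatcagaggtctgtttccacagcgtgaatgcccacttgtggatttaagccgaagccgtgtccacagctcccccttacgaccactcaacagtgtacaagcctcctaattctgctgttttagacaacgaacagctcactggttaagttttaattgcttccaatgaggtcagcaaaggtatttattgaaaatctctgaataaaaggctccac
Fgfbp1: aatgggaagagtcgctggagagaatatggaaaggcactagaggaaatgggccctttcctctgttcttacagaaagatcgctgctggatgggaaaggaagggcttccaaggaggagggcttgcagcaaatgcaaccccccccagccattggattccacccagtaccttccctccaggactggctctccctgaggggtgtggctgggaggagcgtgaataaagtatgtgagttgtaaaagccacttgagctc
Fgf2: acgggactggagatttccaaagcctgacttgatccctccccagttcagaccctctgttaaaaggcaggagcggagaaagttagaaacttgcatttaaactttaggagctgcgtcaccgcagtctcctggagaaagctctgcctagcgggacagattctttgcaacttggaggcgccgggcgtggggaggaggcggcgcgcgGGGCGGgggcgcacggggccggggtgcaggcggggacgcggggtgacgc
The share of G and C was 77.2% for Fgf18, 43.6% for Fgf7, 53.6% for Fgfbp1 and 62.4% for Fgf2. The GC box GGGCGG, searched on both strands, began at -174 in Fgf18 and at -49 in Fgf2, counted from the start site, and was found in 5 of the 8 members whose promoters were read, against 32.7% of 32851 promoter windows. The TATA box TATAAA (12.4% of windows), the AP-1 motif TGANTCA (6.75%) and the AP-2 motif GCCNNNGGC (13.7%) were found in 0 of the 8, and the ETS motif CCGGAA (12% of windows) in Fgfr4 alone. These motifs did not overlap each other in the printed windows, and a match is a description of letters only. The member counts are per gene, and Fgfr3 had more than a single window, whereas the percentages are per window. Fgf1 was not looked up, and Fgfr1 had no promoter entry.

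Signals are given as scaled log2 signals, in which 0 is the 75th percentile of the probes on that array and a step of 1 is a doubling. Before scaling, this percentile lay between 465 and 487 signal units in knockout and between 404 and 416 in hetero, and 60.5% to 69.6% of probes in knockout and 60.4% to 61.3% in hetero were well above background. Across genes, the correlation was 0.995 to 0.998 within a genotype and 0.966 to 0.971 between a knockout and a hetero array. The targeted gene does not check the labels: the single probe of Frs3 was well above background on 0 of 3 knockout arrays and 1 of 3 hetero arrays, and the labels do not place it inside or outside the deleted part. Krt14, Krt19 and Epcam, which mark mammary epithelium, were above background on all 6 arrays, with lower signals in hetero spheres, as given with the other cell type markers. The 6 arrays shared 1 slide and 1 scan.

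The family was split by genotype. Of the 10 genes, 6 were lower in knockout spheres (Fgfr1, Fgfr4, Fgf1, Fgf7, Fgf10 and Fgf18), 3 were higher (Fgfr3, Fgf2 and Fgfbp1), and Fgfr2 did not pass limma's test at an adjusted p of 0.05. Each gene is counted by its brightest probe, and the other probe of Fgfr4 was called higher, so its direction is not settled. The share of all 15838 genes tested that passed was 60.4%, with 32.6% lower and 27.8% higher. The groups did not overlap in 9 of the 10 members, against 68.9% of all genes. A change of at least 2-fold was reached by 3 members, Fgf1, Fgf18 and Fgfbp1, against 10.1% of all genes. The median absolute log2 fold change was 0.68 over the members and 0.22 over all genes, and the signed medians were -0.29 and -0.03. All fold changes are knockout over hetero, measured against the level of the array as a whole. When spike-in spots set the scale of each array, every log2 fold change moved up by 0.42 and the median over all genes was 0.38. Of all 15838 genes, 11471 were then called higher and 1267 lower. The rises of Fgfr3, Fgf2 and Fgfbp1 and the falls of Fgf1, Fgf7 and Fgf18 then still passed, Fgf10 did not pass (-0.05, adjusted p = 0.119), and Fgfr1, Fgfr2 and Fgfr4 changed sign (0.16, 0.26 and 0.10), with Fgfr1 and Fgfr2 then called higher (adjusted p = 0.00354 and 0.0452).

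**Figure D1:**
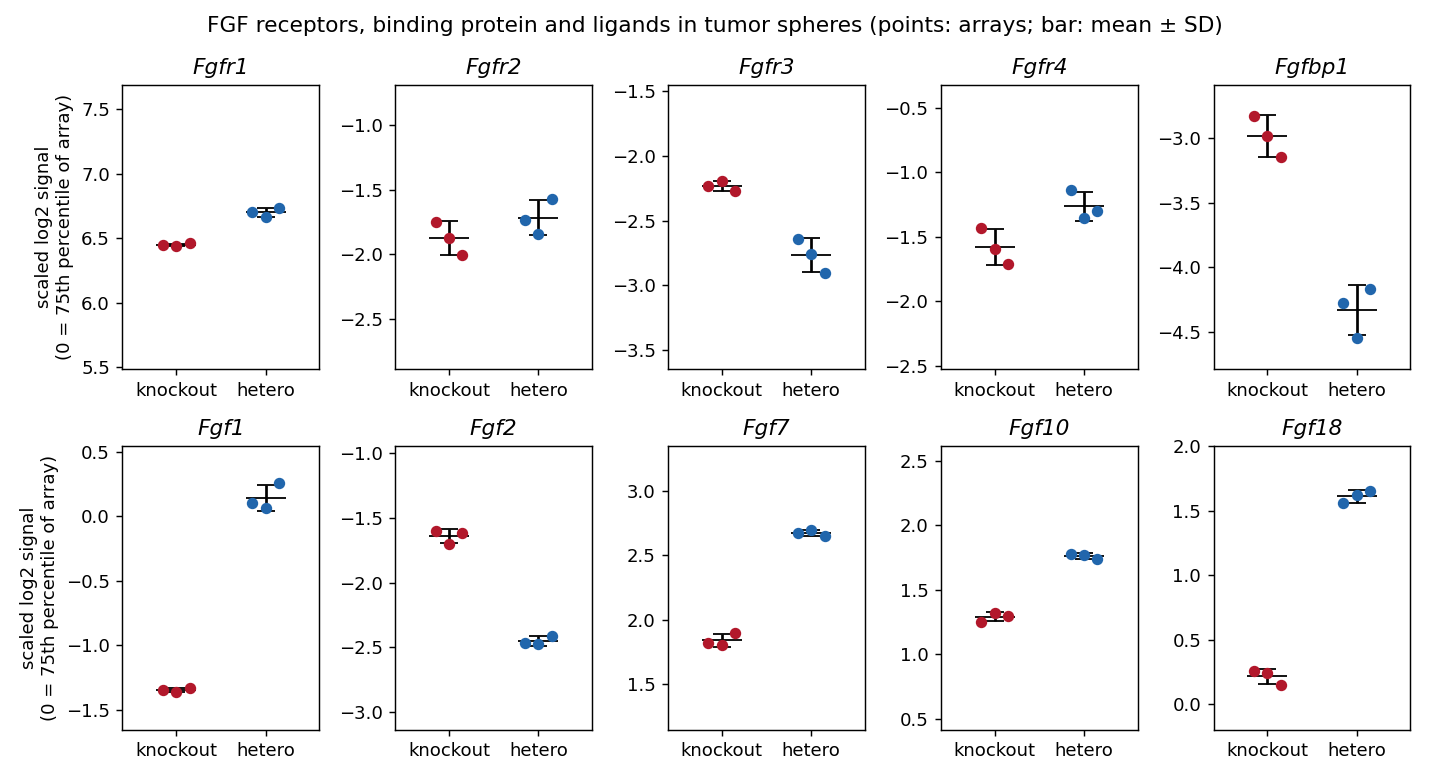
Scaled log2 signal of each FGF gene (y axis, 0 is the 75th percentile of the array, the same span of 2.2 log2 units in each panel) on the 3 knockout arrays and the 3 hetero arrays, with mean and SD. The groups overlap for Fgfr2 alone, and Fgf1, Fgf18 and Fgfbp1 show the widest gaps.

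Among the ligands, those that were lower in knockout spheres were the broadly acting Fgf1, the stromal epithelial growth factors Fgf7 and Fgf10, and Fgf18, which is best known from bone and lung development. Fgf1, whose protein can bind every FGF receptor, had scaled log2 signals of -1.35, -1.36 and -1.33 in knockout spheres, against 0.10, 0.06 and 0.26 in hetero spheres. All knockout arrays lay far below all hetero arrays. The log2 fold change of Fgf1 was -1.49 ± 0.06 (SE, n = 3 each), or 2.80-fold lower, with a limma adjusted p of 1.13e-05, and was -0.89 (adjusted p = 0.00998) when its 2 probes were averaged. Fgf18 had signals of 0.26, 0.24 and 0.15 in knockout spheres, against 1.56, 1.62 and 1.65 in hetero spheres. The groups were well apart, the fold change was -1.39 ± 0.04, or 2.63-fold lower, and the limma adjusted p was 5.7e-06.

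Fgf7, also called keratinocyte growth factor, had signals of 1.82, 1.80 and 1.90 in knockout spheres, against 2.67, 2.70 and 2.65 in hetero spheres. Every knockout array was lower, and the gene fell by 0.83 ± 0.03 log2 units, or 1.78-fold (limma adjusted p = 1.49e-05). The fall of Fgf7 was 0.42 log2 units with spike-in scaling. Fgf10, the ligand that starts mammary bud formation in the mouse embryo, had signals of 1.25, 1.32 and 1.29 in knockout spheres, against 1.78, 1.77 and 1.74 in hetero spheres. Here too the groups were apart, with a smaller fold change of -0.47 ± 0.03, or 1.39-fold lower (limma adjusted p = 6.0e-05). Fgf10 was printed 10 times on each array, and the SD among these spots, which is technical, had a median of 0.05 log2 units. Fibroblast markers moved with these stromal ligands: 8 of 12 were lower and 3 higher in knockout spheres, and their summed log2 signal reached at most 11.05 in knockout spheres, against 11.32 to 11.44 in hetero spheres. With spike-in scaling 6 of these markers were called lower and 4 higher, beside 1267 and 11471 of all 15838 genes. The part of the fibroblast markers in the fall of the ligands was not tested. In bulk RNA fewer cells of a type and less RNA per cell cannot be told apart.

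Fgf2 went the other way. This gene encodes basic FGF, the same factor that was added to the medium, as a protein without a classical secretion signal. Its signals were -1.60, -1.70 and -1.61 in knockout spheres, against -2.47, -2.48 and -2.41 in hetero spheres, so all knockout arrays were higher. The log2 fold change of Fgf2 was 0.81 ± 0.04, or 1.76-fold higher, with a limma adjusted p of 2.83e-05. The SD among its 10 spots within an array had a median of 0.12. With normexp background correction the change was 0.45 (adjusted p = 2.54e-05), and with spike-in scaling it was 1.23.

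Fgfbp1 encodes a secreted protein that binds FGF1 and FGF2 and releases them from heparan sulfate in the matrix, and it is known as a product of epithelial cells. Its signals were dim in both groups, at -2.83, -2.98 and -3.15 in knockout spheres, against -4.28, -4.55 and -4.17 in hetero spheres, yet well above background on all 6 arrays. No hetero array reached a knockout array, and the log2 fold change was 1.35 ± 0.13, or 2.54-fold higher (limma adjusted p = 0.000423). With normexp background correction, whose offset of 50 shrinks the folds of dim probes by construction, it was 0.36 (adjusted p = 0.000509). Luminal epithelial markers moved with Fgfbp1: 10 of 12 were higher and 1 lower, and their summed log2 signal was 7.05 to 7.08 in knockout and 3.88 to 3.92 in hetero spheres. The part of this in the rise of Fgfbp1 was not tested.

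By their brightest probes, the receptors had smaller fold changes than most ligands. The largest log2 fold change among the 4 was 0.54, for Fgfr3, whereas 5 of the 6 ligand and carrier genes exceeded that size. Fgfr1, the receptor with mesenchymal forms bound by many FGFs, had signals of 6.44, 6.44 and 6.46 in knockout spheres, against 6.71, 6.66 and 6.73 in hetero spheres. The groups were apart, but the difference was only -0.25 ± 0.03 log2 units, or 1.19-fold (limma adjusted p = 0.000645). It missed the threshold with quantile scaling (-0.08, adjusted p = 0.0561) and turned to 0.16 with spike-in scaling. The other 2 Fgfr1 probes, in the fit over all probes, were also lower in knockout spheres, by -0.20 ± 0.03 (adjusted p = 0.00233) and -0.44 ± 0.07 (adjusted p = 0.00588). With spike-in scaling these were 0.22 and -0.02.

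Fgfr2, the receptor for FGF7 and FGF10 in its epithelial form, had signals of -1.75, -1.88 and -2.01 in knockout spheres, against -1.73, -1.84 and -1.57 in hetero spheres. The groups overlapped, and the log2 fold change of -0.16 ± 0.10 did not pass (limma adjusted p = 0.204), with a 95% interval of -0.40 to 0.08. With spike-in scaling Fgfr2 was called higher (0.26, adjusted p = 0.0452). Its second probe, printed 10 times on each array, was at the edge of detection and did not pass the filter. That probe had signals of -5.27, -5.19 and -5.42 in knockout spheres, against -6.86, -6.42 and -6.73 in hetero spheres, and was well above background on 2 of 3 knockout arrays and on 0 of 3 hetero arrays. Set against the lowest signals counted as above background, it was at least 1.18-fold higher in knockout spheres, and in a fit without the filter it was higher by 1.38 (limma adjusted p = 0.0025), opposite in sign to the first probe. The labels and files used here do not place the probes in the transcript, so neither can be assigned to the epithelial or mesenchymal form.

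Fgfr3, known for restraining bone growth, and Fgfr4, known for its role with FGF15 in mouse liver, gave results that depended on the probe. The probe of Fgfr3 that stood for the gene had signals of -2.23, -2.19 and -2.27 in knockout spheres, against -2.64, -2.76 and -2.90 in hetero spheres. This probe was higher on every knockout array, by 0.54 ± 0.07 (limma adjusted p = 0.00155), and by 0.23 with normexp background correction or 0.25 as the mean of both probes, and by 0.95 with spike-in scaling. The other Fgfr3 probe had signals of -3.13, -3.18 and -3.28 in knockout spheres, against -3.26, -3.20 and -3.01 in hetero spheres. These overlapped, with a difference of -0.04 ± 0.08 (limma adjusted p = 0.742). The brighter probe of Fgfr4 had signals of -1.44, -1.60 and -1.71 in knockout spheres, against -1.14, -1.35 and -1.30 in hetero spheres, and fell by 0.32 ± 0.09 (limma adjusted p = 0.0291). That call was lost without knockout replicate 2 or 3 or hetero replicate 1 or 3 (adjusted p = 0.0818, 0.0728, 0.0747 and 0.0602). The dimmer probe of Fgfr4 had signals of -3.13, -3.40 and -3.59 in knockout spheres, against -4.41, -4.06 and -4.56 in hetero spheres. It was higher in every knockout array, by 0.97 ± 0.18 (limma adjusted p = 0.0082), and by 0.21 with normexp (adjusted p = 0.0329), so the direction of Fgfr4 is not settled by this array.

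**Figure D2:**
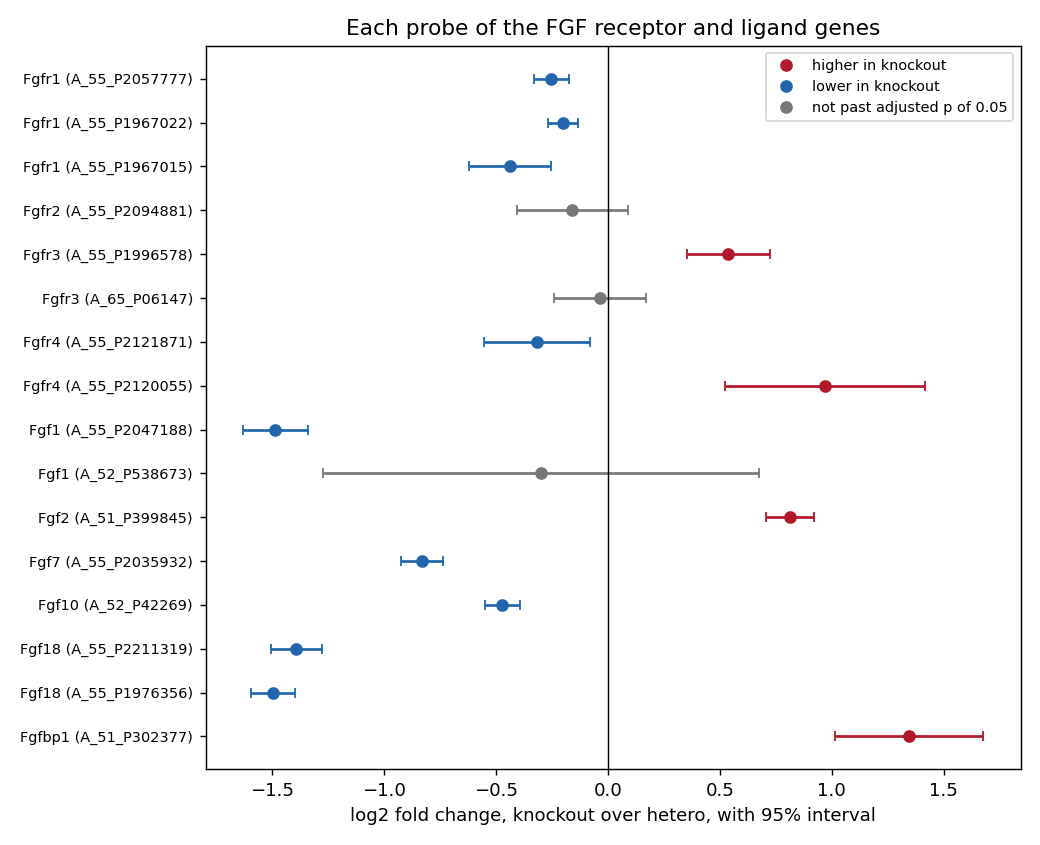
Log2 fold change, knockout over hetero, of the 16 tested probes of the FGF genes (points) with the 95% interval of the fit over all probes (bars). The 2 probes of Fgf18 and the 3 of Fgfr1 lie on the same side of 0, while the 2 of Fgfr4 lie on opposite sides.

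Probe by probe, 13 of the 16 tested probes passed limma's test, 9 lower and 4 higher in knockout spheres, against 47% of all 35427 probes tested, and the groups did not overlap in 13, against 59% of all probes. The second probe of Fgf18 had signals of -0.94, -0.89 and -0.94 in knockout spheres, against 0.54, 0.63 and 0.55 in hetero spheres, and was 2.83-fold lower (limma adjusted p = 8.92e-06), much like the first. The second probe of Fgf1 was at the edge of detection, well above background on 2 of 3 knockout arrays and 1 of 3 hetero arrays, and its difference of -0.30 ± 0.38 did not pass (limma adjusted p = 0.564), whereas with normexp it was -0.29 (adjusted p = 0.00498). Probes called in both directions, as for Fgfr4, occurred in 108 of 4044 genes with several tested probes, or 2.67%. Scaling does not enter the difference between 2 probes of a gene on the same array. For Fgfr4 this difference, brighter minus dimmer probe, was 1.69, 1.80 and 1.88 log2 units on the knockout arrays, against 3.27, 2.71 and 3.26 on the hetero arrays. For Fgfr3 it was 0.90, 0.98 and 1.01 on the knockout arrays, against 0.62, 0.44 and 0.10 on the hetero arrays. The knockout and hetero means differed by -1.29 log2 units for Fgfr4 and 0.57 for Fgfr3, and the groups did not overlap. With normexp the probes of Fgfr4 changed much less, by -0.23 and 0.21. The groups did not overlap for the Fgfr1 pairs either, where the means differed by only -0.05 and 0.19. The two-sided exact permutation test gave p = 0.1 for the Fgfr1, Fgfr3 and Fgfr4 pairs, the smallest value that 3 arrays against 3 allow, so it cannot pass the threshold and does not set Fgfr3 and Fgfr4 apart.

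**Figure D3:**
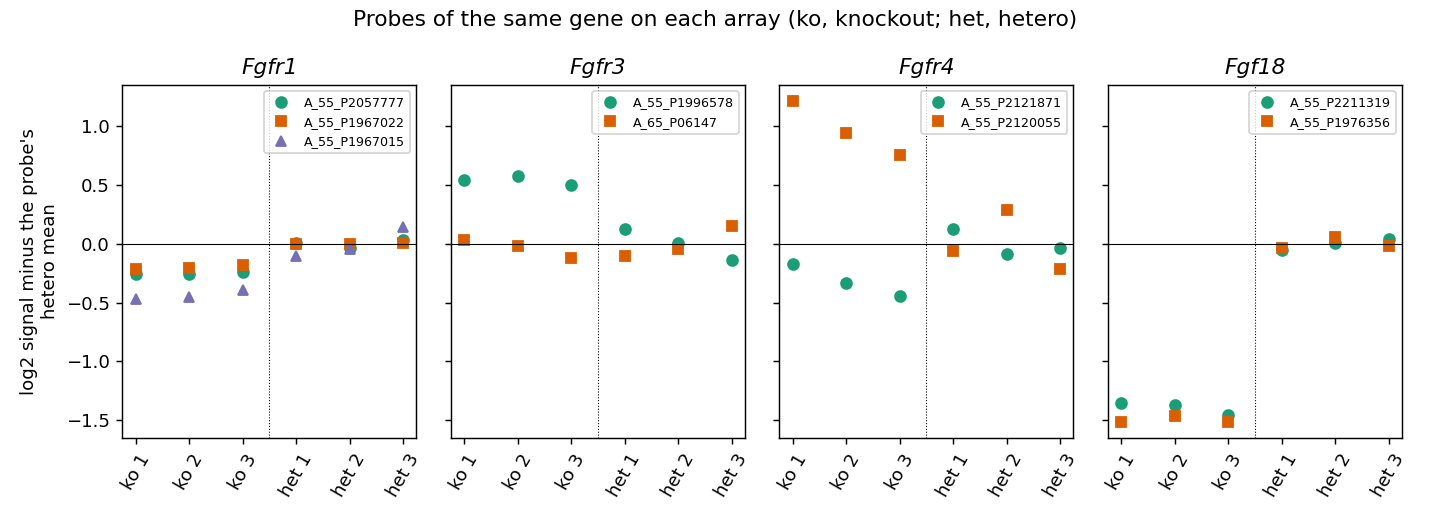
Log2 signal minus the probe's own hetero mean (y axis) for each probe well above background on all 6 arrays, on each knockout and hetero array (x axis), for the 4 genes with several such probes. The probes of Fgf18 fall together by about 1.4 to 1.5 log2 units on knockout arrays, and those of Fgfr4 part in opposite directions.

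The directions were the same in both slide rows. For each genotype, replicates 1 and 2 lay in slide row 1 and replicate 3 in row 2, and all 9 called members had the same sign in both rows. Fgf1 differed by -1.44 in row 1 and -1.59 in row 2, Fgf18 by -1.34 and -1.50, Fgfbp1 by 1.51 and 1.02, and Fgf2 by 0.82 and 0.80 log2 units. With the row as a block the same number, 9 genes, passed. Each slide column held a single genotype, so column and genotype cannot be told apart.

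**Figure D4:**
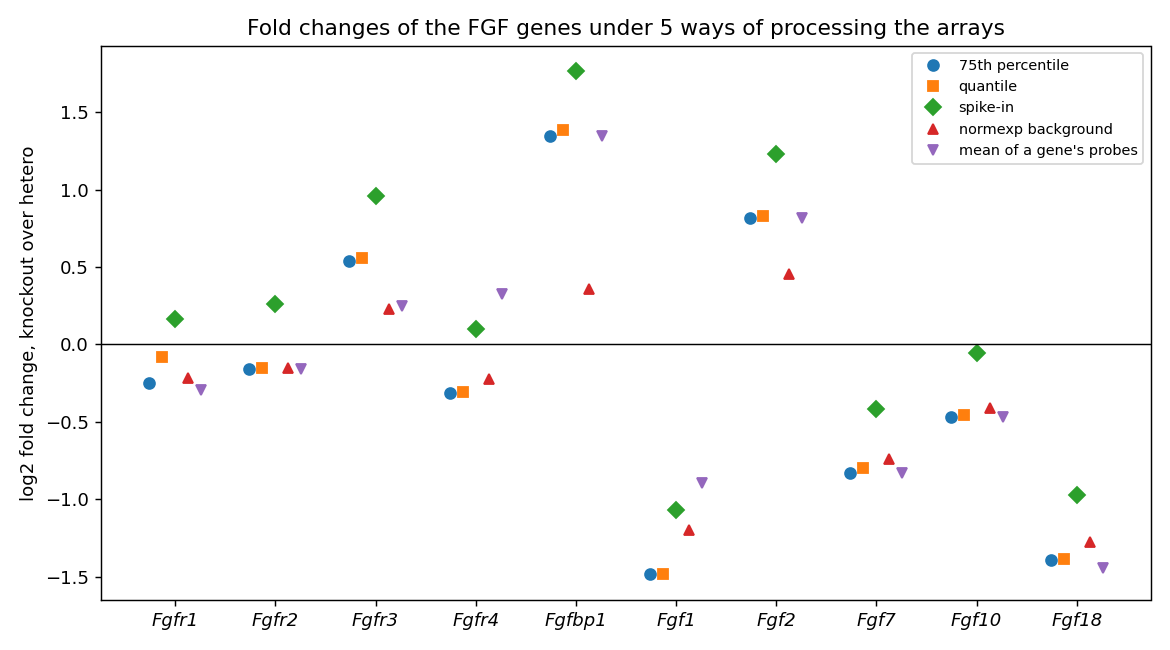
Log2 fold change of each FGF gene, knockout over hetero, under 5 ways of processing the same arrays (symbols). Fgf1, Fgf7 and Fgf18 stay below 0 and Fgfr3, Fgf2 and Fgfbp1 above 0 in all 5, while Fgfr1, Fgfr2 and Fgfr4 cross 0.

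Most other secreted FGF genes were silent or faint. Of 13 such genes, 4 were tested, and 6 stayed below the background limit on all 6 arrays. Fgf5, which controls hair growth, was at least 1.75-fold higher in knockout spheres, with no hetero array above background. It entered the fit only through the knockout arrays, so its call is no independent test, and 0 of these genes were called higher with normexp or with the filter on all 6 arrays. Fgf23, the phosphate hormone of bone, fell by 0.30 ± 0.03 on 1 bright probe, with a mean signal of 5.71 in knockout and 6.01 in hetero spheres. Its other probe was below the background limit on all 6 arrays, so the signal rests on the bright one. With spike-in scaling 4 of the 4 were called higher, but so were 11471 of all 15838 genes.

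Membrane partners of the receptors were split as well. Of 7 tested co-receptor, decoy and carrier genes, 3 were lower and 2 higher, with a median log2 fold change of -0.45 beside -0.03 for all genes. Over all genes 32.6% were lower and 27.8% higher, so the counts called were close to the background. The 3 that were lower are the FLRT genes, whose membrane proteins bind FGF receptors: Flrt2 fell by 1.03 ± 0.06, Flrt3 fell by 0.96 ± 0.03 and Flrt1 fell by 0.71 ± 0.09. Il17rd, an inhibitor of FGF signalling also called Sef, was higher by 0.37 ± 0.04, and Fgfrl1, a receptor that lacks a kinase domain, by 0.17 ± 0.03, while median scaling left 1 of the genes higher. Heparan sulfate carriers and enzymes, on which ligand binding depends, were lower in 10 of 22 and higher in 5, with a median of -0.11. Over all genes 60.4% were called in either direction, so the share called was close to the background. The glypican genes Gpc3 and Gpc6 fell by 2.78 ± 0.08 and 1.17 ± 0.10, the heparanase gene Hpse by 1.67 ± 0.04, the sulfatase gene Sulf2 by 0.63 ± 0.04 and the sulfotransferase gene Hs3st1 by 0.57 ± 0.06 log2 units. Among those that rose, named after their values were seen, were the sulfotransferase genes Hs6st2 (0.54 ± 0.07) and Hs6st1 (0.48 ± 0.04) and the sulfatase gene Sulf1 (0.43 ± 0.03). With spike-in scaling 13 of the 22 were higher and 5 lower, beside 11471 and 1267 of all 15838 genes. Macrophage markers moved with the heparan sulfate genes that fell, 11 of 11 lower, against 32.6% of all genes. So did fibroblast markers, with 8 of 12 lower and 3 higher, and adipocyte markers, with 4 of 6 tested lower. The summed log2 signal of the macrophage markers was 6.04 to 6.08 in knockout and 6.53 to 6.59 in hetero spheres. Most of that sum was Itgam alone, the brightest of these markers, with means of 5.88 in knockout and 6.20 in hetero spheres. Itgam fell by only 0.32 ± 0.03, so the sum says little about the other macrophage markers. The part of macrophage, fibroblast or adipocyte RNA in the fall of any heparan sulfate gene was not tested.

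Signal transducers below the receptors changed in both directions. Of 23 tested, 7 were higher and 8 lower, with a median of 0.06. Over all genes 27.8% were higher and 32.6% lower, so the shares called were close to the background. Quantile and median scaling each left 5 lower. With spike-in scaling 22 were higher and 0 lower, beside 11471 and 1267 of all 15838 genes. Pik3r1, the regulatory subunit of PI3-kinase, was higher by 1.43 ± 0.15. The Ras genes Hras and Nras were higher by 0.32 ± 0.03 and 0.31 ± 0.03, and Stat3 fell by 0.32 ± 0.02. Frs2, the paralog of Frs3 and the main docking adaptor of FGF receptors, had signals of 2.60, 2.61 and 2.60 in knockout spheres, against 2.75, 2.73 and 2.65 in hetero spheres. Its difference of -0.11 ± 0.03 passed (limma adjusted p = 0.035), but the call was lost under 10 of 16 other settings and the sign turned under spike-in scaling.

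Feedback and target genes of FGF and ERK signalling rose more often than they fell: 14 of 19 were higher and 2 lower, with a median of 0.36, against 27.8% higher and 32.6% lower over all genes and a median of -0.03. Luminal and basal epithelial markers, with medians of 3.39 and 2.01, rose with this list, and their part in it was not tested. The phosphatase genes Dusp5 and Dusp4, whose products switch off MAP kinases, were higher by 1.65 ± 0.39 and 1.02 ± 0.04, Dusp5 with 2 of 3 hetero arrays above background. Fos, an immediate early transcription factor, was higher by 1.12 ± 0.03, the ETS factor gene Etv4 by 0.79 ± 0.04 and the feedback inhibitor gene Spry1 by 0.66 ± 0.04. Spry2 and Etv1, named here after their values were seen, were the 2 that were lower, and fell by 0.24 ± 0.04 and 0.22 ± 0.03. With spike-in scaling all 19 were higher, but so were 11471 of all 15838 genes. These genes also answer to EGF receptors and other inputs, which were not separated here. The list was chosen with earlier results of these data known, so its counts beside all genes are a description and no independent test.

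**Figure D5:**
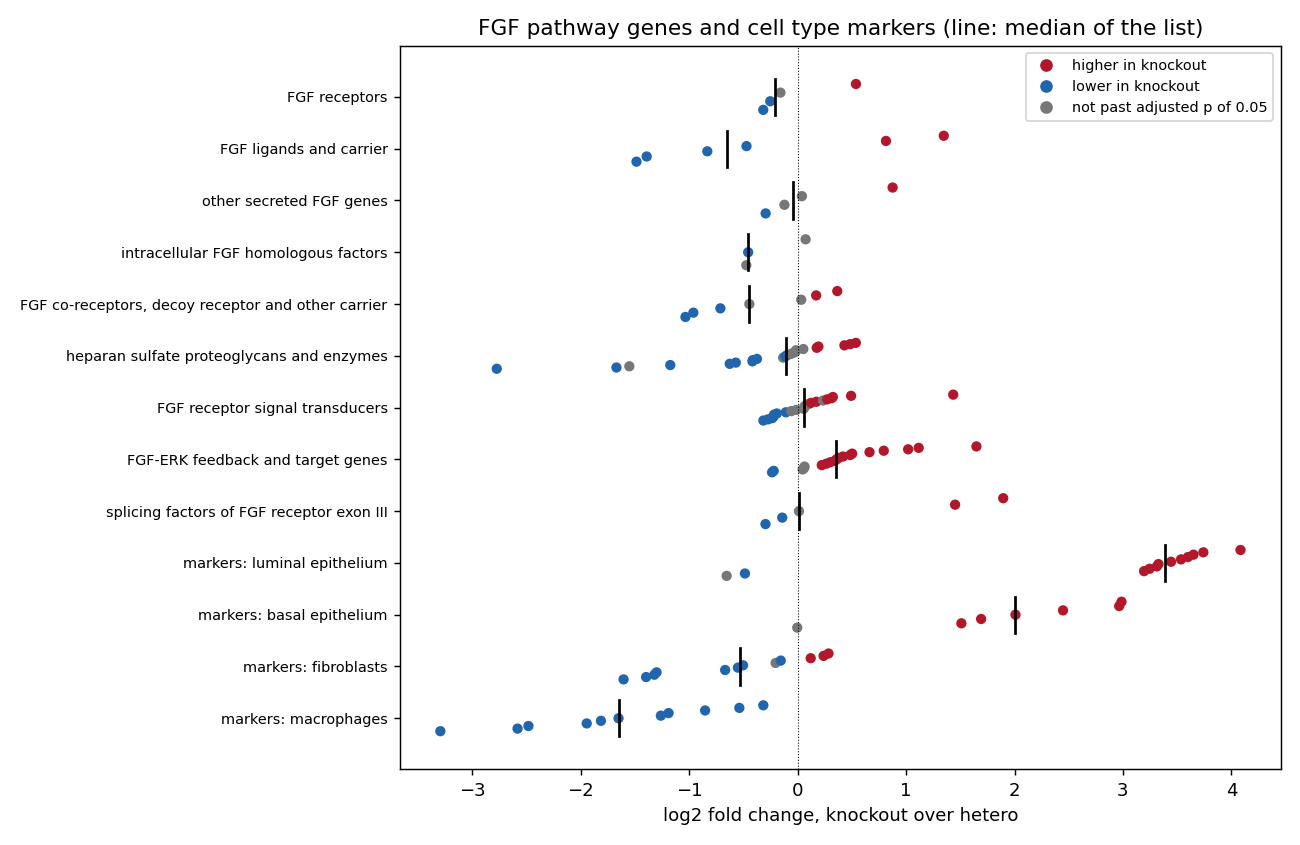
Log2 fold change, knockout over hetero, of each tested gene (points, coloured by call) in the FGF pathway lists and in 4 cell type marker lists, with the list median (line). The feedback list centres on 0.36 and the luminal marker list on 3.39, while fibroblast and macrophage markers centre on -0.53 and -1.65.

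Epithelial markers were mostly higher in knockout spheres, and markers of fibroblasts, macrophages and adipocytes were mostly lower. Luminal markers had a median log2 fold change of 3.39, led by the keratin gene Krt19 (4.08 ± 0.03) and the adhesion gene Epcam (3.74 ± 0.04). Of 12 luminal markers 10 were higher. Kit and Muc1, named after their values were seen, went the other way: Kit fell by 0.49 ± 0.03, and Muc1 (-0.66 ± 0.48) did not pass. Basal markers were higher in 6 of 7 tested, with a median of 2.01, led by Oxtr (2.99 ± 0.05) and the keratin gene Krt14 (2.97 ± 0.02), and a summed log2 signal of 6.56 in knockout and 4.39 to 4.40 in hetero spheres. Fibroblast markers had a median of -0.53, and Dpt and Fbln1 fell by 1.61 ± 0.02 and 1.40 ± 0.03. Mfap5, Postn and Pdgfrb, named after their values were seen, rose by 0.28 ± 0.03, 0.24 ± 0.04 and 0.12 ± 0.03. Macrophage markers had a median of -1.65, and Mrc1 and Aif1 fell by 3.30 ± 0.13 and 2.58 ± 0.09. Endothelial markers were lower in 4 of 8 and higher in 2, with a median of -0.12, against 32.6% lower and 27.8% higher over all genes. Tek and Kdr fell by 0.54 ± 0.06 and 0.43 ± 0.04. Emcn and Vwf, named after their values were seen, rose by 0.27 ± 0.05 and 0.26 ± 0.04. Adipocyte markers were lower in 4 of 6 tested, and Lpl and Pparg fell by 1.24 ± 0.03 and 0.68 ± 0.02, while Cidec and Car3 were not above background on any array. Lymphocyte markers were lower in 2 of 6 tested and higher in 1, and Ptprc fell by 1.52 ± 0.09 while Ms4a1 was at least 5.30-fold higher, the hetero arrays being below background. Ms4a1 passed the filter through the knockout arrays alone, and with the filter on all 6 arrays 0 lymphocyte markers were higher and 3 lower. Cd3d and Cd8a were not above background on any array. With spike-in scaling, 5 endothelial markers were higher and 0 lower, 2 adipocyte markers were higher and 2 lower, and 3 lymphocyte markers were higher and 1 lower. Under the same scaling 1 macrophage marker was higher and 8 lower, and 4 fibroblast markers were higher and 6 lower. Of all 15838 genes, 11471 were higher and 1267 lower with this scaling.

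The genes whose pattern was most like the 2 largest changes among the FGF genes were found by the distance between centred log2 values over the 6 arrays. For Fgf1 these were Pde1a, Rbp4 and H2-K1, at distances of 0.11, 0.11 and 0.12, with log2 fold changes of -1.49, -1.48 and -1.47. For Fgf18 they were Pmp22, Adamts15 and Lmo2, at distances of 0.08, 0.09 and 0.10, with log2 fold changes of -1.37, -1.39 and -1.40. With 6 arrays in 2 groups this likeness is mostly that of the fold change itself.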

How the data were processed

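Total RNA from 3 knockout and 3 hetero sphere samples was labelled with Cy3 and measured on single-colour Agilent arrays, per the labels. Per the file headers, spots were read with Feature Extraction 10.7.3.1 (Agilent). The deposited intensity used here is the processed signal, with background and spatial trend removed and no scaling between arrays, per the file headers. The deposited table of intensities for 46598 probes equals this signal divided by a constant per array (402 to 484), within 1% for 100% of probes spotted once, so it is on a linear scale without centring of genes. Its column medians were 0.163, 0.159 and 0.159 for the knockout arrays and 0.161, 0.159 and 0.169 for the hetero arrays.

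Control spots (3671 of 62976) and 102 to 129 outlier spots per array were left out, and spots of a probe were averaged as log2 values. No spot was saturated. Probes were named through their RefSeq accession (27235 probes, GRCm38.p6 gene table). A probe counted as well above background on an array where at least 0.5 of its spots were. Each array was scaled to its 75th percentile, probes well above background on at least 3 arrays were kept, and the brightest kept probe stood for its gene. The genotypes were compared with limma 3.58.1 in R 4.3.3 (lmFit and eBayes, no covariate), with Benjamini-Hochberg adjusted p-values over 15838 genes or, for single probes, over 35427 probes, at a threshold of 0.05. A fold against a group with no array above background is a bound, in which each dim value below the array's lowest signal counted as well above background was first raised to that signal. Precision is limited by the number of arrays.

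The alternatives were quantile, median and spike-in scaling (245 spike-in spots above background on all arrays), normexp with an offset of 50, run on median spot signals in place of mean signals, no filter, a filter on all 6 arrays, the deposited table, the mean of a gene's probes, replicate number or slide row as a block, and leaving out each array. Members and gene lists were chosen with earlier results of these data known. Beyond the members, up to 5 called genes of each pathway list and 2 of each marker list, by size of change and with the brighter group above background on its 3 arrays, are named, apart from some that are not reported here. Of 175 listed genes, 173 had a probe.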

Additional observations from a re-analysis of the deposited data

How the results depend on the processing

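All 3 counts moved by less than 1.5 times under the 16 alternatives. Genes called ran from 7088 (median scaling) to 12738 (spike-in scaling), beside 9563, and FGF genes called were 8 or 9, beside 9. FGF probes called were 11 to 14, beside 13. Leaving out 1 array gave 8564 to 8952 genes, 8 or 9 FGF genes and 12 or 13 FGF probes. Spike-in scaling turned the split of all genes to 11471 higher and 1267 lower, beside 4403 and 5160. It also turned the sign of Fgfr1 (0.16), its second probe (0.22), Fgfr2 (0.26), the second probe of Fgfr3 (0.38), the second probe of Fgf1 (0.12), Fgfr4 (0.10) and Frs2 (0.31), as falls smaller than its shift of 0.42 do by construction. Averaging the probes of Fgfr4 turned it to 0.33 (adjusted p = 0.0514), since its probes disagree. Fgf1, Fgf2, Fgf7, Fgf18, Fgfr3 and Fgfbp1 kept their direction and call under all 16. Low signal over background limits the folds of dim probes: normexp gave 0.36 for Fgfbp1, beside 1.35.

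With the replicate block 8511 genes, 9 FGF genes and 13 FGF probes passed, and among the FGF genes and Frs2 the call of Frs2 alone was lost (adjusted p = 0.0716). The labels do not say that a number marks a shared animal or day. Deviations of same-numbered arrays from their group means correlated at -0.12, -0.02 and -0.01, and no array correlated best with its own number. With 3 arrays a group, these values cannot decide whether a number marks something shared. Same-numbered arrays did lie in the same slide row.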

Other observations

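The splicing factors that set the ligand-binding exon of FGF receptors were measured as well. Esrp1 and Esrp2, epithelial splicing regulators that favour the epithelial form of Fgfr2, were higher in knockout spheres, by 1.45 ± 0.07 and 1.90 ± 0.10 log2 units (limma adjusted p = 3.16e-05 and 4.94e-05). Rbfox2 and Celf1, broadly expressed splicing factors, fell by 0.30 ± 0.05 and 0.14 ± 0.03, and Ptbp1 differed by 0.01 ± 0.03 (limma adjusted p = 0.793). With spike-in scaling 4 of the 5 were called higher and 0 lower, beside 11471 and 1267 of all 15838 genes. With the mean of a gene's probes 4 were higher and 1 lower, so the fall of Rbfox2, of Celf1 or of both then turned to a rise. With normexp 3 were higher and 1 lower, and with median scaling 2 higher and 1 lower. Luminal epithelial markers, with a median of 3.39, moved with Esrp1 and Esrp2, and their part in it was not tested. The gene-level probes do not report which receptor form was present.

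Among the intracellular FGF homologous factors, which act on sodium channels and are not secreted, 1 of 3 tested passed. Fgf11 fell by 0.46 ± 0.14 (limma adjusted p = 0.0385), and 0 of the 3 were lower with spike-in scaling, with no filter, with the replicate block, with slide row as a block, or without knockout replicate 1, 2 or 3 or hetero replicate 1.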
